A study of Mus musculus with 8 samples.

Results

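The transcription factors of naive pluripotency described here are 10 named genes out of 48440 in the files: Esrrb, Tfcp2l1, Klf2, Klf4, Klf5, Nanog, Nr0b1, Zfp42, Prdm14 and Pou5f1. They were chosen by name with earlier results of these data known. Counts set beside shares over all genes are therefore a description and no test of the list. All 10 passed the filter on low counts and were among the 17049 genes tested. Naive pluripotency is the state of the ES cell that resembles the epiblast of the early embryo, and it is kept by a small circuit of transcription factors that activate each other. LIF, through Stat3, and inhibition of GSK3 and of MEK are known to sustain the circuit. When they are withdrawn the factors fall as cells move to formative and then primed pluripotency, from which the primitive streak forms. Pou5f1 is also expressed in formative and primed cells, so that its level is not particular to the naive state.

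The libraries, 2 for each of 4 genotypes, hold RNA of mouse ES cells collected 1 day into differentiation in culture. All cells were of the MK6 line of C57BL/6J mice: wild-type (WT), Tbxt delE6/delE6 (exon 6 of Tbxt deleted on both alleles), Tbxt delE6/+ (deleted on a single allele) and Tbxt Insert ASAY (human AluY and AluSx1 inserted into Tbxt introns on both alleles). The delE6/delE6 libraries came from different clones, and for the other lines the sources used here name no clones. Every line was plated with LIF and inhibitors of MEK and GSK3, cultured without them, and then given the GSK3 inhibitor CHIR99021 at day 0, which all 4 genotypes therefore share. The Insert ASAY lines were engineered on mouse embryonic fibroblast feeders and the exon 6 deletions without feeders, which cannot be told apart from genotype. The 3 mutant lines share the same 2 WT libraries.

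Values are strand-specific read counts per gene, given as CPM, counts scaled to a common library size with TMM factors. Sums over marker lists are CPM on library totals without these factors. A gene was called when the adjusted p of edgeR's quasi-likelihood test was under 0.05 and the log2 fold change was past 0.5 in size. The fit shares an estimate of each gene's spread over all genotypes. The standard errors (SE) and adjusted p given below therefore do not show the spread of a single line, and that between the delE6/delE6 clones was wider. Each library held between 24618587 and 28445952 reads on genes. The 10 ES cell markers outside the list were all detected in every genotype, at a summed 1750.95 to 2068.77 CPM. They were not level between genotypes: 6 of the 10 fell and 2 rose in delE6/+ against WT (median log2 fold change -0.52), and 2 fell in each of delE6/delE6 and Insert ASAY. Of all tested genes, 6.89% were called lower and 6.6% higher in delE6/+, 6.59% and 6.12% in delE6/delE6, and 9.85% and 11.5% in Insert ASAY. In delE6/+, Tdgf1, a co-receptor of Nodal, fell by 2.26 and Cdh1 (E-cadherin) by 0.67 on the log2 scale, while Lin28a, an RNA-binding protein, rose by 0.81, and the part of this in the values of the naive factors was not tested. Tbxt itself, named T in the annotation, had 47 and 42 reads in WT, 26 and 22 in delE6/delE6, 39 and 54 in delE6/+, and 30 and 29 in Insert ASAY libraries. At these low counts T was called lower in delE6/delE6 than in WT (log2 fold change -0.81, adjusted p = 0.0360). Its values against WT were 0.17 in delE6/+ and -0.60 in Insert ASAY, neither called. T was also called in delE6/+ against delE6/delE6 (0.98, adjusted p = 0.0101) and in Insert ASAY against delE6/+ (-0.76, adjusted p = 0.0265). Counts per gene do not show whether exon 6 is present. The delE6/delE6 clones stood further apart than other replicates, with a chi-square per degree of freedom of 10.8 between their counts against 2.74 to 3.37 in the other genotypes.

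Promoter letters are shown for Nanog, Tfcp2l1 and Zfp42, the 3 factors whose windows before the start site held a match to a motif searched. Nanog and Tfcp2l1 were called lower in all 3 mutant lines. Zfp42 was called in none of them against WT and differed between them. Klf2 was likewise called in none against WT and differed between the deletion lines, and its window held no match. The 250 bases before the annotated start site were read from a set of RefSeq promoter sequences (GRCm38.p6). The set used here holds 8 of the 10 factors, without Klf5 and Prdm14. Capitals mark matches to the Klf motif (GGGTGTGG or GGGCGTGG) or, in Zfp42, also to the octamer (ATTTGCAT), on either strand. The windows lie at chr6:122707239-122707488 (plus strand), chr1:118627695-118627944 (plus strand) and chr8:43307010-43307259 (minus strand).
Nanog: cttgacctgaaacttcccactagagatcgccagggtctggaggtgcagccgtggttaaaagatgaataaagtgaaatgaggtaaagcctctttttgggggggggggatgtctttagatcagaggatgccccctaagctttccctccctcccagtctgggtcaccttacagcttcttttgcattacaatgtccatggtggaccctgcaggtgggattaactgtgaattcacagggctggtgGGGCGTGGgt
Tfcp2l1: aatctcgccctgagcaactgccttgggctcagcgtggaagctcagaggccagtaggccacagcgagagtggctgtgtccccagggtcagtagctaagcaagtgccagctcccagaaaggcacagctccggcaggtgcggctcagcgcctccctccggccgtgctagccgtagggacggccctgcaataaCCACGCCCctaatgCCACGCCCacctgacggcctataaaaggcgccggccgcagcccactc
Zfp42: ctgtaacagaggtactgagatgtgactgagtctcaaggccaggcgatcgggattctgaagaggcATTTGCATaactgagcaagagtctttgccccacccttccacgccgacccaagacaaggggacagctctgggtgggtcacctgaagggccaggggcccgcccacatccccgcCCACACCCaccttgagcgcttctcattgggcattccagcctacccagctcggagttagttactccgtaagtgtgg
The Klf letters occurred in 3 of the 8 windows and in 7.72% of all 32851 windows of this length, and the octamer in 1 of the 8 and in 1.60% of all. In Tfcp2l1 the 2 Klf matches stand 61 to 54 and 47 to 40 bases before the start site, and in Nanog the match stands 10 to 3 bases before it. In Zfp42 the octamer stands 186 to 179 and the Klf match 75 to 68 bases before it. No window of the 8 held TCAAGGTCA (the Esrrb motif, in 0.387% of all windows), TTCCNGGAA (Stat, 0.913%), CTTTGAT (Tcf/Lef, 3.21%) or AGGTGTGA (T-box, 1.12%), each searched on both strands. Only exact letters were counted, so that TTTTGCAT in the Nanog window, 1 letter from the octamer searched, is not marked. A match is a run of letters and no evidence of binding, and its absence is no evidence against binding.

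Several of the naive factors fell in every mutant line, Tfcp2l1 and Nanog in all of them. Against WT, 5 of the 10 were called lower in delE6/delE6, 7 in delE6/+ and 4 in Insert ASAY, and 0 were called higher in any line, by edgeR or by DESeq2. At an unadjusted p under 0.05, 2 were higher in delE6/delE6, 0 in delE6/+ and 2 in Insert ASAY. Of all tested genes, 6.59% were called lower and 6.12% higher in delE6/delE6, 6.89% and 6.6% in delE6/+, and 9.85% and 11.5% in Insert ASAY. The median log2 fold change of the 10 was -0.55, -0.64 and -0.52 in the same order, while the median over all tested genes was within 0.01 of 0 in each comparison. Both mutant libraries lay below both WT libraries for 7 factors in delE6/delE6, 10 in delE6/+ and 7 in Insert ASAY, beside 34.3%, 34.9% and 38.5% of all tested genes. Tfcp2l1 and Nanog were called in all 3 comparisons, 4 factors in 2 of them, Klf4 and Nr0b1 in 1, and Klf2 and Zfp42 in 0. In bulk RNA, fewer cells that express a gene and less RNA per cell cannot be told apart.

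**Figure D1:**
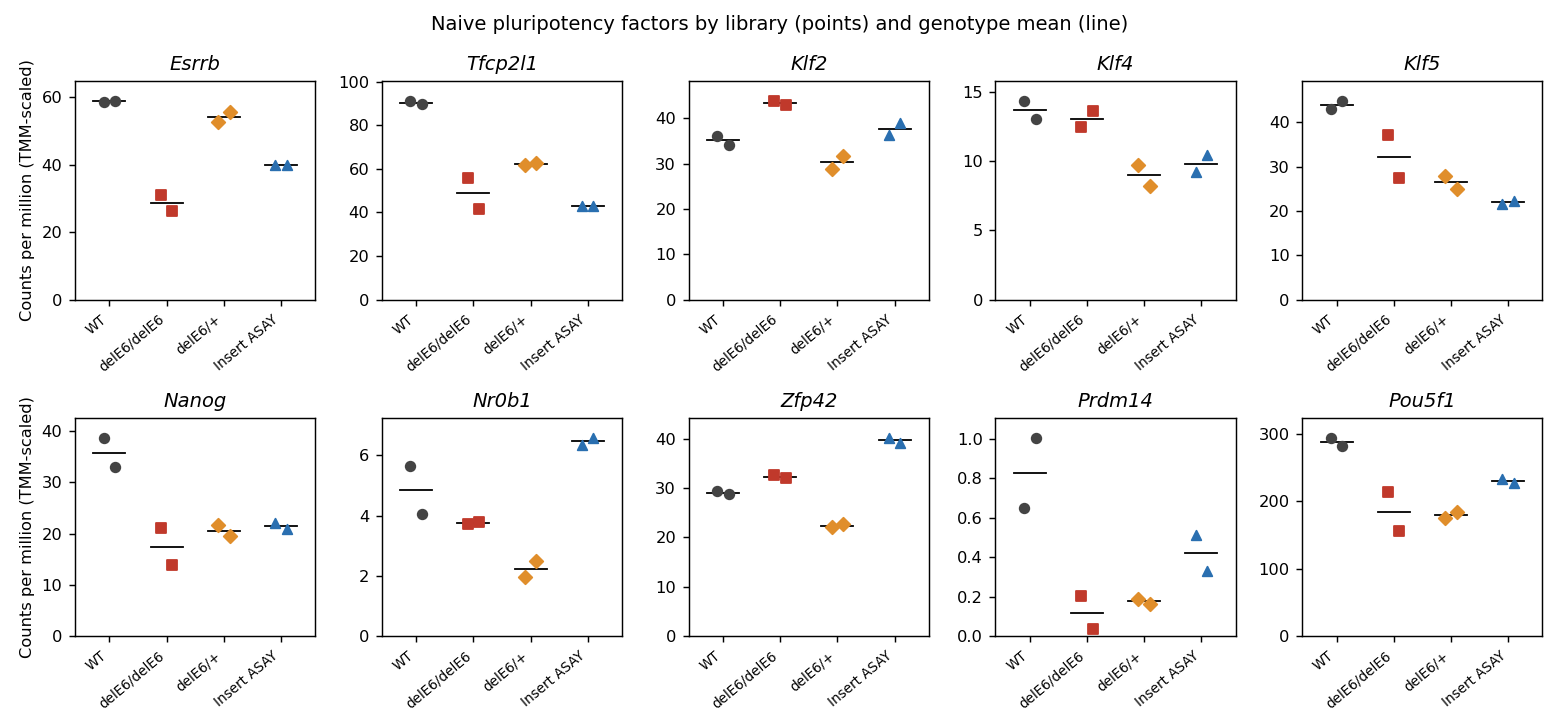
CPM of each factor (vertical axis from 0, TMM-scaled) by genotype, with a point for each library and a line at the mean of the 2 libraries. Nanog and Tfcp2l1 lie below WT in all 6 mutant libraries, while Zfp42 and Nr0b1 are highest in Insert ASAY and lowest in delE6/+ libraries.

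**Figure D2:**
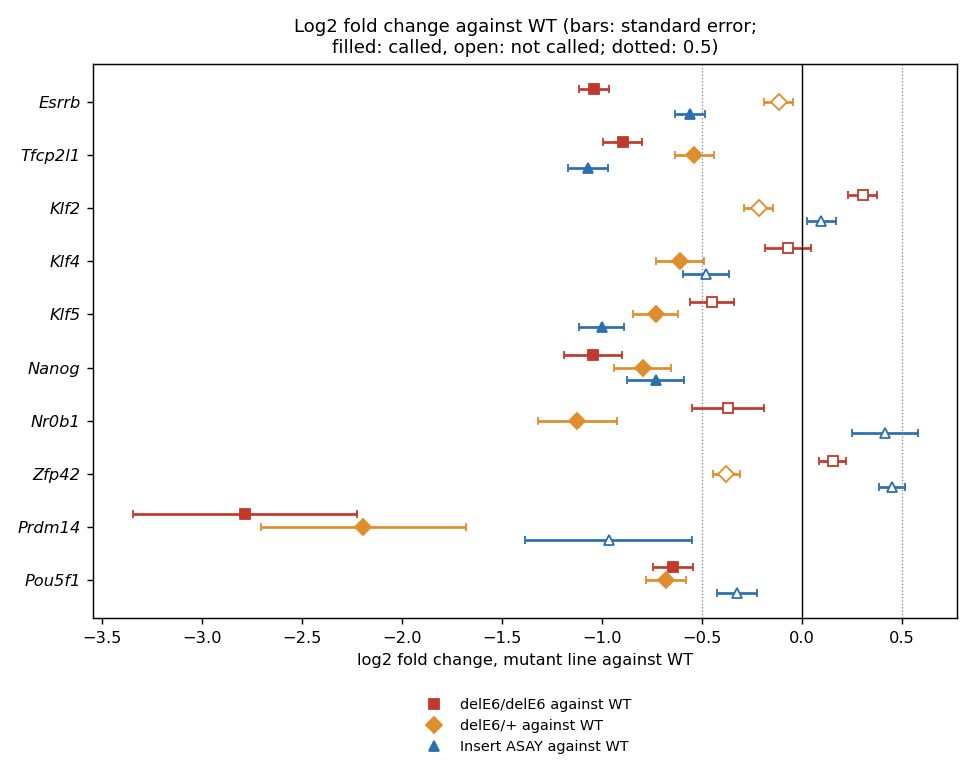
Log2 fold change of each factor in the 3 mutant lines against the shared WT libraries (horizontal axis), with bars for the standard error. Filled symbols were called and open ones were not, and every filled symbol lies to the left of -0.5.

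Tfcp2l1 and Esrrb are the factors that GSK3 inhibition and LIF are best known to sustain: Tfcp2l1 is a target of Stat3, and Esrrb, an orphan nuclear receptor, is held down by the repressor Tcf7l1. Tfcp2l1 (chr1:118627945-118685168, plus strand, ENSMUSG00000026380.10) stood at 91.2 and 89.6 CPM in WT, 56.0 and 41.4 in delE6/delE6, 61.7 and 62.8 in delE6/+, and 43.0 and 43.2 in Insert ASAY libraries. Every mutant library was below both WT libraries, and the delE6/delE6 clones differed by 1.35 times. The log2 fold change of Tfcp2l1 was -0.90 in delE6/delE6 (SE 0.0975, adjusted p = 6.84e-05), -0.54 in delE6/+ (SE 0.0959, adjusted p = 0.000878) and -1.07 in Insert ASAY (SE 0.0981, adjusted p = 5.44e-06). Tfcp2l1 was also called 0.53 lower on the log2 scale in Insert ASAY than in delE6/+ (log2 fold change -0.53, adjusted p = 0.000622). Between Insert ASAY and delE6/delE6 the log2 fold change was -0.17 (SE 0.101, adjusted p = 0.270), and it was 0.04 without delE6/delE6 replicate 1.

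Esrrb (chr12:86361117-86521628, plus strand, ENSMUSG00000021255.17) stood at 58.7 and 58.9 CPM in WT, 31.1 and 26.2 in delE6/delE6, 52.8 and 55.6 in delE6/+, and 39.9 and 39.9 in Insert ASAY libraries. The 4 groups did not overlap, and delE6/+ was nearest to WT. Esrrb was 2.06-fold lower in delE6/delE6 (log2 fold change -1.04, SE 0.0762, adjusted p = 5.47e-06) and 1.47-fold lower in Insert ASAY (-0.56, SE 0.0737, adjusted p = 6.35e-05). In delE6/+ it did not pass (log2 fold change -0.12, SE 0.0726, adjusted p = 0.245), and the difference between the deletion lines was itself called, with Esrrb 0.92 higher in delE6/+ than in delE6/delE6 (SE 0.0767, adjusted p = 1.16e-06).

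The Krüppel-like factors Klf2, Klf4 and Klf5 bind the same GC-rich letters and can stand in for each other in keeping ES cells naive, and they did not move together. Klf5 (chr14:99298691-99315036, plus strand, ENSMUSG00000005148.7) stood at 43.1 and 44.8 CPM in WT, 37.0 and 27.5 in delE6/delE6, 27.9 and 24.9 in delE6/+, and 21.5 and 22.3 in Insert ASAY libraries. All 6 mutant libraries were below WT. Klf5 was 2.00-fold lower in Insert ASAY (log2 fold change -1.002, SE 0.112, adjusted p = 2.01e-05) and 1.66-fold lower in delE6/+ (-0.73, SE 0.111, adjusted p = 0.000263). In delE6/delE6 its log2 fold change of -0.45 (SE 0.109, adjusted p = 0.00693) missed the threshold of 0.5, and it depended on the clone, at -0.67 and called without delE6/delE6 replicate 1 and at -0.25 without delE6/delE6 replicate 2.

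Klf4 (chr4:55527143-55532466, minus strand, ENSMUSG00000003032.8), a target of LIF and Stat3, stood at 14.3 and 13.0 CPM in WT, 12.4 and 13.6 in delE6/delE6, 9.73 and 8.17 in delE6/+, and 9.18 and 10.4 in Insert ASAY libraries. WT and delE6/delE6 overlapped, and the other 4 libraries were lower. Klf4 was called in delE6/+ (log2 fold change -0.61, SE 0.119, adjusted p = 0.00168), a call lost without delE6/+ replicate 2, where the value was -0.49. In Insert ASAY the value was -0.48 (SE 0.117, adjusted p = 0.00445), short of 0.5, and it was called at -0.55 without WT replicate 2 and at -0.58 without Insert ASAY replicate 2. In delE6/delE6 it was -0.07 (SE 0.114, adjusted p = 0.661), with 0.000358 without WT replicate 1. Klf4 was also called lower in delE6/+ than in delE6/delE6 (-0.54, adjusted p = 0.00255), and this call was lost without replicate 2 of either line.

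Klf2 (chr8:72319033-72321656, plus strand, ENSMUSG00000055148.7), which MEK inhibition is known to stabilise as a protein, stood at 36.2 and 34.1 CPM in WT, 43.8 and 42.9 in delE6/delE6, 28.8 and 31.8 in delE6/+, and 36.3 and 38.9 in Insert ASAY libraries. Both delE6/delE6 libraries were above all others and both delE6/+ libraries below all others. Against WT its log2 fold change was 0.30 in delE6/delE6 (SE 0.0712, adjusted p = 0.00583), -0.22 in delE6/+ (SE 0.0732, adjusted p = 0.0383) and 0.10 in Insert ASAY (SE 0.0716, adjusted p = 0.296), none of them past 0.5. The deletion lines differed from each other by -0.52 (delE6/+ against delE6/delE6, SE 0.0725, adjusted p = 7.87e-05), a call lost without delE6/+ replicate 1, where the value was -0.45.

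Nanog, the homeodomain factor that lets ES cells renew without LIF when it is abundant, and Pou5f1 (Oct4), the POU factor that pluripotent cells need in order to form, are held to be at the centre of the circuit. Nanog (chr6:122707489-122714633, plus strand, ENSMUSG00000012396.12) stood at 38.7 and 32.9 CPM in WT, 21.1 and 13.8 in delE6/delE6, 21.7 and 19.5 in delE6/+, and 22.2 and 20.97 in Insert ASAY libraries. The mutant lines overlapped each other and none overlapped WT. Nanog was 2.06-fold lower in delE6/delE6 (log2 fold change -1.04, SE 0.145, adjusted p = 0.000260), 1.74-fold lower in delE6/+ (-0.80, SE 0.143, adjusted p = 0.000905) and 1.66-fold lower in Insert ASAY (-0.73, SE 0.141, adjusted p = 0.000966). No pair of mutant lines was called different for Nanog: the log2 fold changes were 0.25 (SE 0.152, delE6/+ against delE6/delE6), 0.31 (SE 0.150, Insert ASAY against delE6/delE6) and 0.07 (SE 0.148, Insert ASAY against delE6/+). Without delE6/delE6 replicate 1 the first 2 were called, at 0.57 and 0.63. Its annotated pseudogenes Nanog-ps1 and Nanog-ps2 held 30 and 0 reads over the 8 libraries.

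Pou5f1 (chr17:35506018-35510772, plus strand, ENSMUSG00000024406.16) was the most abundant of the factors, at 294.6 and 281.9 CPM in WT, 213.5 and 155.6 in delE6/delE6, 175.9 and 184.2 in delE6/+, and 232.7 and 227.9 in Insert ASAY libraries. All mutant libraries were below WT, and those of Insert ASAY were nearest to it. Pou5f1 was 1.60-fold lower in delE6/+ (log2 fold change -0.68, SE 0.0999, adjusted p = 0.000209) and 1.56-fold lower in delE6/delE6 (-0.64, SE 0.0998, adjusted p = 0.000479). The delE6/delE6 call was lost without delE6/delE6 replicate 2, where the value was -0.43. In Insert ASAY the value was -0.32 (SE 0.0989, adjusted p = 0.0165), short of 0.5. The deletion lines differed by -0.03 (SE 0.101, adjusted p = 0.798), a sign that turned without delE6/delE6 replicate 1, at 0.20. The antisense gene Gm19553 overlaps Pou5f1 and had 2 to 20 reads per library.

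Prdm14, a regulator that represses FGF receptor signalling and DNA methyltransferases in naive cells, was close to the limit of detection. The library counts of Prdm14 (chr1:13113457-13127163, minus strand, ENSMUSG00000042414.7) were 18 and 27 reads in WT, 5 and 1 in delE6/delE6, 5 and 4 in delE6/+, and 14 and 9 in Insert ASAY. The 4 libraries of the deletion lines were all below the others. Prdm14 fell in delE6/delE6 (log2 fold change -2.79, SE 0.560, adjusted p = 0.00236) and in delE6/+ (-2.19, SE 0.514, adjusted p = 0.00547), and in Insert ASAY its value was -0.97 (SE 0.419, adjusted p = 0.0746). Without delE6/delE6 replicate 1 the delE6/delE6 value was -4.32, resting on a library with 1 read. The delE6/+ call was lost without WT replicate 2 (adjusted p = 0.0646) and without delE6/+ replicate 2 (adjusted p just over 0.05). The Insert ASAY value was called in a fit of the 2 groups only (adjusted p = 0.0383) and without either delE6/delE6 library (adjusted p = 0.0455 and 0.0457).

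Nr0b1 and Zfp42 lay on opposite sides of WT in different lines. Nr0b1 (Dax1, chrX:86191764-86195947, plus strand, ENSMUSG00000025056.4) is an orphan nuclear receptor that binds Pou5f1 and Esrrb proteins and tempers them. It stood at 5.63 and 4.06 CPM in WT, 3.72 and 3.78 in delE6/delE6, 1.97 and 2.49 in delE6/+, and 6.34 and 6.59 in Insert ASAY libraries. The genotypes did not overlap, and the order from low to high was delE6/+, delE6/delE6, WT and Insert ASAY. Nr0b1 was 2.18-fold lower in delE6/+ than in WT (log2 fold change -1.12, SE 0.196, adjusted p = 0.000761). In delE6/delE6 the value was -0.37 (SE 0.179, adjusted p = 0.126) and in Insert ASAY 0.41 (SE 0.166, adjusted p = 0.0560). The WT libraries differed by 1.39 times, and both values depended on them. The delE6/delE6 value was -0.59 and called without WT replicate 2 and -0.11 without WT replicate 1, and the Insert ASAY value was 0.67 and called without WT replicate 1 and 0.20 without WT replicate 2. Directly compared, Nr0b1 was higher in Insert ASAY than in delE6/+ (1.54, SE 0.189, adjusted p = 2.27e-05) and than in delE6/delE6 (0.78, SE 0.173, adjusted p = 0.00892), and lower in delE6/+ than in delE6/delE6 (-0.75, SE 0.204, adjusted p = 0.00862). The second of these calls was lost without either Insert ASAY library, and the third without delE6/+ replicate 1.

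Zfp42 (Rex1, chr8:43295063-43306980, minus strand, ENSMUSG00000051176.6) is a zinc finger gene whose loss is the usual mark of exit from the naive state. It stood at 29.4 and 28.7 CPM in WT, 32.6 and 32.0 in delE6/delE6, 22.0 and 22.7 in delE6/+, and 40.2 and 39.2 in Insert ASAY libraries. No genotypes overlapped, and replicates were within 1.03 times of each other. Against WT the log2 fold change was 0.45 in Insert ASAY (SE 0.0650, adjusted p = 0.000122), -0.38 in delE6/+ (SE 0.0684, adjusted p = 0.000981) and 0.15 in delE6/delE6 (SE 0.0661, adjusted p = 0.0899), all short of 0.5. Between lines, Zfp42 was 0.83 higher in Insert ASAY than in delE6/+ (SE 0.0670, adjusted p = 7.90e-07) and lower in delE6/+ than in delE6/delE6 (-0.53, SE 0.0681, adjusted p = 3.95e-05).

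**Figure D3:**
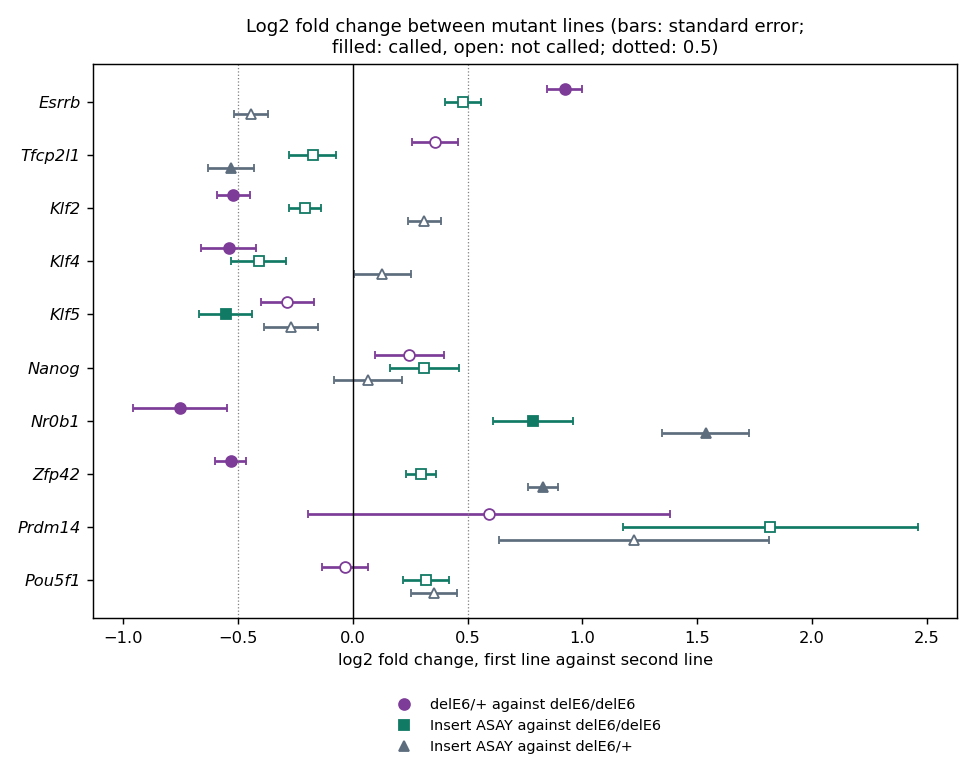
Log2 fold change of each factor between pairs of mutant lines (horizontal axis, first line against second), with bars for the standard error and filled symbols for calls. Among the filled symbols, Nr0b1 in Insert ASAY against delE6/+ lies furthest to the right, at 1.54.

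Taken pair by pair, the mutant lines differed at some of the factors and not at others. Between delE6/+ and delE6/delE6, 4 factors were called lower in delE6/+ (Klf2, Klf4, Nr0b1 and Zfp42) and 1 higher (Esrrb), beside 11.0% and 11.2% of all genes. Between Insert ASAY and delE6/delE6, 1 was lower in Insert ASAY (Klf5, log2 fold change -0.55, SE 0.115, adjusted p = 0.00628) and 1 higher (Nr0b1), beside 2.38% and 2.79% of all genes. Without delE6/delE6 replicate 1 the count was 5 (Esrrb, Nanog, Nr0b1, Prdm14 and Pou5f1), and Klf5 was no longer called, at -0.34. The count was 0 without Insert ASAY replicate 1 and 1 (Klf5) without Insert ASAY replicate 2. Between Insert ASAY and delE6/+, 1 was lower in Insert ASAY (Tfcp2l1) and 2 higher (Nr0b1 and Zfp42), beside 13.0% and 14.6% of all genes. With a test of whether the change exceeds 0.5 (TREAT) in place of a test against 0, the counts were 4, 2 and 2 against WT and 1, 0 and 2 between lines, in the order given. Against WT, TREAT left Nr0b1 and Prdm14 in delE6/+ and Tfcp2l1 and Klf5 in Insert ASAY. Neither Tfcp2l1 nor Nanog was then called in all of the mutant lines.

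The factors differed over a wide range in level. Per kilobase of exon, Pou5f1 was at 128.2 CPM in WT (SD 3.999, n = 2), above 97.99% of tested genes. Klf2 followed at 19.0, Nanog at 16.0, Zfp42 at 15.4, Esrrb at 9.72, Tfcp2l1 at 9.58, Klf5 at 8.45, Klf4 at 4.49, Nr0b1 at 2.68 and Prdm14 at 0.323 CPM per kilobase. In WT the libraries of Nanog and Zfp42 overlapped, and no other neighbours in that order did. In delE6/delE6 the order was Pou5f1, Klf2, Zfp42, Nanog, Klf5, Tfcp2l1, Esrrb, Klf4, Nr0b1 and Prdm14, and neighbours from Nanog to Klf4 overlapped. In delE6/+ the overlap was between Nanog and Esrrb. In Insert ASAY, Zfp42 at 21.1 and Klf2 at 20.3 CPM per kilobase overlapped, and Nr0b1 at 3.57 stood above Klf4 at 3.22.

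Between replicates the factors varied most between the delE6/delE6 clones. The median difference between the 2 libraries over the 10 factors was 0.34 in log2 CPM there, beside 0.13 over all genes with at least 2 CPM. In the other genotypes the medians over the factors were 0.07 in WT, 0.14 in delE6/+ and 0.05 in Insert ASAY, beside 0.07, 0.07 and 0.06 over all such genes. The factors thus varied more than all genes in delE6/+ too. Prdm14, at 5 and 1 reads, differed by 5.52 times between the clones. Nanog differed by 1.52 times, Pou5f1 by 1.37, Tfcp2l1 by 1.35 and Klf5 by 1.35 times, each lower in replicate 2, while Klf2 and Zfp42 differed by 1.02 times.

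The factors sit among genes that act in the same circuit, and these were read from lists that hold no member. Of 16 other naive pluripotency genes, 9 were called lower and 1 higher in delE6/delE6, 8 and 2 in delE6/+, and 8 and 2 in Insert ASAY. The shares of all tested genes called lower and higher, in the same order, were 6.59% and 6.12%, 6.89% and 6.6%, and 9.85% and 11.5%. They apply to every list below, and a count near them says nothing particular of a list. Fgf4, the growth factor that drives exit from the naive state, fell from 20.2 and 17.0 CPM in WT to 2.71 to 5.84 CPM in the 6 mutant libraries, with log2 fold changes of -2.33, -1.68 and -1.81 in delE6/delE6, delE6/+ and Insert ASAY. Gbx2, a homeobox target of LIF and Stat3, rose in all 3 lines (0.95, 1.62 and 2.01). Stat3 fell in delE6/delE6 (log2 fold change -0.53) and Insert ASAY (-1.03), and its value in delE6/+ was 0.07 (adjusted p = 0.455). Sox2, the partner of Pou5f1, rose in delE6/+ (0.72, adjusted p = 0.000199), and its values were -0.29 in delE6/delE6 and -0.05 in Insert ASAY.

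Among 22 regulators that act on the factors, 1 was called higher and 3 lower in delE6/delE6, 3 and 2 in delE6/+, and 1 and 4 in Insert ASAY. Some genes, Stat3 and Fgf4 among them, stand in both this list and the one before. Other lists overlap too, so that their counts are not independent. Fgf4 and Sox2 are also in the list of ES cell markers, and Lef1 is also in that of formative and primed genes. Cdx2 and Eomes are in both the primitive streak and the trophoblast lists. Tcf7l1, the repressor of Esrrb and Nanog whose hold GSK3 inhibition relieves, was at 64.0 and 66.0 CPM in WT and was not called in any line (log2 fold changes 0.09, 0.18 and -0.02). Fgfr2, a receptor for FGF, rose in delE6/+ (1.44, adjusted p = 6.30e-07), as did Lef1, a partner of beta-catenin (1.23, adjusted p = 2.57e-06).

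Genes of later states and of other cell types were read beside the factors, and their part in these results was not tested. Of all tested genes, 6.12% were called higher and 6.59% lower in delE6/delE6, 6.6% and 6.89% in delE6/+, and 11.5% and 9.85% in Insert ASAY. Several counts in these lists lie near those shares. Of 18 formative and primed genes, 2 were called higher and 2 lower in delE6/delE6, 5 and 2 in delE6/+, and 2 and 2 in Insert ASAY, with Sox11 (0.86) and Cdh2 (0.90) among those that rose in delE6/+. Of 10 tested primitive streak genes, 1 rose and 1 fell in delE6/delE6, 3 and 3 in delE6/+, and 3 and 1 in Insert ASAY. In delE6/+, Nodal (-0.80) and Eomes (-0.95) fell and Cdx2 rose (3.06), while Eomes rose in delE6/delE6 (0.54). Of 8 tested neural progenitor markers, 5 rose in delE6/+, 1 rose and 3 fell in delE6/delE6, and 1 fell in Insert ASAY. Sox1 was at 24.5 and 23.6 CPM in delE6/+ and 5.36 to 7.91 in all other libraries, and Zic1 rose there too (1.70), beside 7 factors called lower. The summed neural level was 177.5 to 179.5 CPM in delE6/+, 173.6 to 219.3 in delE6/delE6, 158.4 to 165.9 in Insert ASAY and 146.9 to 154.4 in WT, and Neurog2 was at 0 in both Insert ASAY libraries.

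The cells were differentiated on gelatin without feeder cells, and fibroblast markers were read because of the feeders used to engineer the Insert ASAY lines. These markers summed to 1257 to 1311 CPM in WT, 682.0 to 816.0 in delE6/delE6, 1031 to 1049 in delE6/+ and 601.7 to 621.9 in Insert ASAY, most of it Fn1, which ES cells and their derivatives also express. Of 9 tested, 3 fell in delE6/delE6, 1 fell and 2 rose in delE6/+, and 7 fell in Insert ASAY, and Postn was at 0 in Insert ASAY. Col1a1 fell in delE6/delE6 (-0.77) and Insert ASAY (-1.32), and its value in delE6/+ was -0.36, not called. Of 12 primitive endoderm markers, 3 rose in delE6/+, 3 fell in delE6/delE6, and 1 rose and 1 fell in Insert ASAY. Their sum was 197.5 to 223.2 CPM in delE6/+, 157.8 to 174.7 in WT, 121.5 to 131.6 in delE6/delE6 and 133.3 to 134.5 in Insert ASAY. Lama1 rose in delE6/+ (0.76) and fell in delE6/delE6 (-0.63). Of 9 tested trophoblast markers, 4 fell and 1 rose in delE6/delE6, 3 and 1 in delE6/+, and 4 and 1 in Insert ASAY. They summed to 61.8 to 79.2 CPM over the 8 libraries, with Tpbpa and Prl3d1 at 0 in every genotype.

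Markers of the 2-cell-like state, a rare state of ES cells that express genes of the cleavage embryo, were in sum lowest in delE6/+ and highest in Insert ASAY. Zfp42 and Nr0b1 were also lowest and highest in these lines. In delE6/delE6 the summed markers and Nr0b1 lay below WT, while Zfp42 lay above it. Between the deletion lines 1 of the 11 tested markers was called, lower in delE6/+, where Zfp42 and Nr0b1 differed by -0.53 and -0.75. The part of the markers in the values of these factors was not tested. Of 11 tested, 9 fell in delE6/delE6, 10 fell in delE6/+, and 3 rose in Insert ASAY. They summed to 23.2 to 23.9 CPM in WT, 11.6 to 12.8 in delE6/delE6, 9.94 to 10.2 in delE6/+ and 31.3 to 34.7 in Insert ASAY. Zscan4d, a member of a family of near-identical genes whose reads the counting could split, had log2 fold changes of -0.90, -1.11 and 0.68 in delE6/delE6, delE6/+ and Insert ASAY. Gm6763 was at 0 in every genotype.

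**Figure D4:**
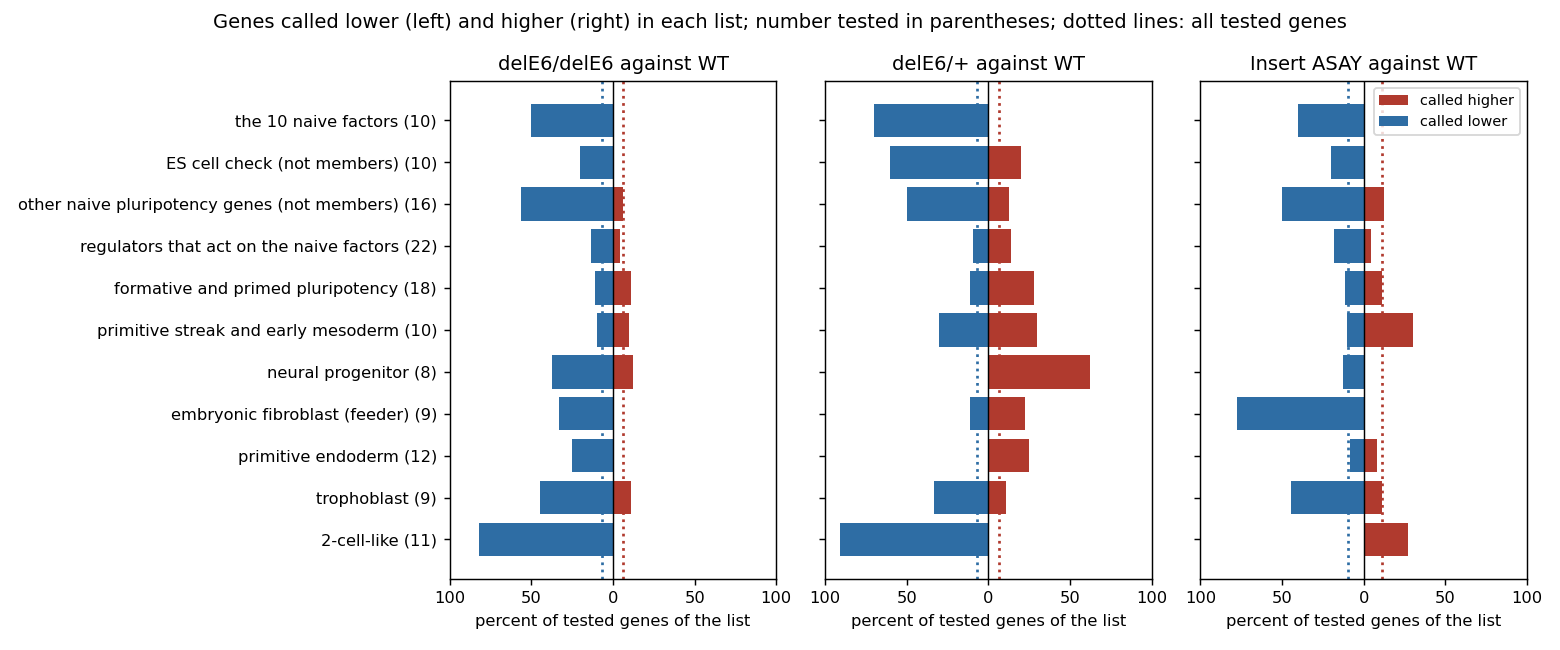
Percent of tested genes called lower (left of 0) and higher (right of 0) against WT for the 10 factors and for each list, in 3 panels by mutant line, with dotted lines at the percent of all tested genes. The 10 factors have bars on the left only, at 50%, 70% and 40%.

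Genes whose levels followed each factor most closely were named by Pearson's correlation of log2 CPM over the 8 libraries, out of 12812 genes with at least 2 CPM. With 8 libraries in 4 genotypes the values are a description, and the libraries share their genotype. Each named gene is the first of many: r was over 0.95 for 171 genes with Zfp42, 163 with Tfcp2l1 and 99 with Klf5. For each other factor it was over 0.95 for 12 to 44 genes. Nanog was followed most closely by Fgf4 (r = 0.974), Pou5f1 by Dppa3 (0.988), a maternal factor of naive cells, and Prdm14 by Pecam1 (0.986), an adhesion molecule of the inner cell mass. Zfp42 was followed by Tex15 (0.996), a germ cell gene, Esrrb by Ryr1 (0.995), Tfcp2l1 by Rps19 (0.992), Klf2 by Otub1 (0.992), Klf4 by Rap1gds1 (0.992), Klf5 by Tprgl (0.992) and Nr0b1 by Phb (0.980). Among the factors themselves, r was highest for Prdm14 and Pou5f1 (0.945), Nanog and Pou5f1 (0.915) and Nr0b1 and Zfp42 (0.896), and lowest for Esrrb and Klf2 (-0.81).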

How the data were processed

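Poly(A) RNA of 8 libraries was sequenced with strand kept. The authors mapped reads to mm10 with STAR 2.7.2a and deposited whole-number counts of reads per gene, neither normalized nor filtered; their annotation is not given in the sources used here, and their own tests used DESeq2 1.40.2. Counts of the fourth column (the strand opposite to the first read) were used, since the other strand held 4.11% to 4.78% of stranded reads. Symbols and coordinates came from GENCODE M21 (48058 of 48440 genes matched). Summary lines, present in 7 files, were left out. They put 26.2% to 29.0% of reads on no gene.

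Counts were fitted with edgeR 4.0.16 (R 4.3.3): TMM, filterByExpr (minimum count 10, minimum total 15), quasi-likelihood test on all 8 libraries, Benjamini-Hochberg adjustment over 17049 genes, 6 comparisons. Log2 CPM used a prior count of 2. With 2 libraries a group no permutation test was made. The authors describe the 2 libraries of a genotype as biological replicates. Alternatives were DESeq2 1.42.0, edgeR with DESeq2 scaling, no filter, a minimum of 10 reads per library and unstranded counts. Others were leaving out chromosome 3, fits of 2 groups, a replicate block, TREAT in edgeR and leaving out each library. Steps were tested on simulated counts. Tables used pandas 2.3.3 and numpy 2.4.6 under Python 3.11.15, and plots matplotlib 3.10.9. Members and lists were chosen with earlier results of these data known. All 10 members are named, up to 3 called genes of each list by smallest adjusted p against WT, Tcf7l1, Stat3, Sox2 and T whatever their values, and for each member the most correlated gene. Protein sequences were not used here.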

Additional observations from a re-analysis of the deposited data

Results flagged for a closer look

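Direct comparisons of mutant lines were called for 10 pairs of a factor and a comparison. Clone and feeder history cannot be told apart from genotype in these calls. Esrrb between the deletion lines, and Nr0b1 and Zfp42 between Insert ASAY and delE6/+, kept their calls in every refit. The other calls were lost under TREAT. Those of Klf2, Klf4 and Nr0b1 between the deletion lines, and of Klf5 and Nr0b1 between Insert ASAY and delE6/delE6, were also lost without a single library. In delE6/+ against delE6/delE6 the log2 fold changes were 0.92 for Esrrb, -0.52 for Klf2, -0.54 for Klf4, -0.75 for Nr0b1 and -0.53 for Zfp42. In Insert ASAY against delE6/delE6 they were -0.55 for Klf5 and 0.78 for Nr0b1, and in Insert ASAY against delE6/+ they were -0.53 for Tfcp2l1, 1.54 for Nr0b1 and 0.83 for Zfp42. For Klf2 and Zfp42 between the deletion lines, and for Nr0b1 and Zfp42 between Insert ASAY and delE6/+, the lines also lay on opposite sides of WT, as did Nr0b1 in Insert ASAY and delE6/delE6. Of these values against WT, only that of Nr0b1 in delE6/+ was called. The other Nr0b1 values depended on the WT library kept. Groups of 2 libraries are too small for a test of single outlying libraries.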

How the results depend on the processing

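Of 1006 refitted values of a factor in a comparison, 957 kept direction and side of the thresholds, 27 lost a call, 15 gained a call and 7 turned sign. TREAT against 0.5 left 2 of 7 calls in delE6/+ against WT, 2 of 4 in Insert ASAY against WT, 1 of 5 in delE6/+ against delE6/delE6 and 0 of 2 in Insert ASAY against delE6/delE6, since it asks for a change beyond 0.5. Leaving out 1 library gave 3 to 7 calls in delE6/+ against delE6/delE6 and 0 to 5 in Insert ASAY against delE6/delE6. The sign turned for values that were not called: Pou5f1 in delE6/+ against delE6/delE6 was 0.016 with unstranded counts and ran from -0.25 to 0.20 without 1 library. Without 1 library, Tfcp2l1 in Insert ASAY against delE6/delE6 ran from -0.38 to 0.041, Klf4 in delE6/delE6 against WT from -0.14 to 0.000358, Nanog in delE6/+ against delE6/delE6 from -0.032 to 0.57 and in Insert ASAY against delE6/+ from -0.010 to 0.14, and Prdm14 in delE6/+ against delE6/delE6 from -0.19 to 2.13. The cause was not tested.

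The replicate numbers do not pair the libraries: deviations of same-numbered libraries from their group means correlated between -0.10 and 0.07 over 12837 genes. With the replicate number as a block, the counts of calls were 5, 7 and 4 against WT and 5, 2 and 3 between lines, equal to those without it.

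DESeq2 gave no adjusted p for Prdm14 in 5 of the 6 comparisons, and a minimum of 10 reads in every library removed Prdm14. With 1 to 27 reads per library, its changes are known only roughly. Per kilobase of the longest transcript, in place of all exons, Esrrb was at 13.7, Klf5 at 13.1 and Pou5f1 at 211.6 CPM in WT. By Spearman's rho the correlation of Nanog with Fgf4 was 0.643, and that of the other 9 factors with their nearest gene 0.929 to 1.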
